A study of Homo sapiens with 4 samples.

Results

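The nuclear genes of respiratory chain complexes III and IV and of the ATP synthase (complex V) were followed across the 4 deposited libraries. Members were taken by symbol: every gene whose name starts with UQCR, with COX4 to COX8, or with ATP5F1, ATP5M, ATP5P or ATP5IF, together with CYC1 and CYCS. The rule found 47 of the 36601 listed genes, with 10 in complex III (CYC1 included), 17 in complex IV and 19 in complex V. CYCS, which encodes the mobile carrier cytochrome c, was kept apart. No expression value entered the rule, but the members were chosen with earlier results of these data known.

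BEAS-2B is an immortalized line derived from human bronchial epithelium, so every library holds the same cell line. Cells without radiation served as the control, and the other cells received 10 mGy, 100 mGy or 1 Gy from a gamma-ray source. Irradiated cells were collected after 30 min of culture, and polyadenylated RNA was captured per cell in droplets. Each captured molecule carries a cell barcode and a unique molecular identifier (UMI), and the authors deposited the number of UMIs per gene and barcode. Each dose has 1 library and no replicate, the barcodes of a library are not replicates, and dose and library cannot be told apart. No test between doses was therefore made.

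Electrons pass through complex III to cytochrome c and from there to complex IV, which hands them to oxygen, and complex V uses the proton gradient that results to make ATP. Each complex joins nuclear-encoded subunits, imported from the cytosol, with a few subunits encoded in mitochondrial DNA. In complexes III and IV the redox centres sit in a small set of core subunits surrounded by small accessory subunits. Complex V has a catalytic head, a peripheral stalk, a ring of c subunits that rotates in the membrane, and small membrane subunits.

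The libraries held 211752280 to 285806026 UMIs over 11111 to 21514 barcodes, with a median of 12417 to 19771 UMIs per barcode. Between 76 and 134 barcode sequences were shared by any pair of libraries, under 1% of each library. Doublets were not removed. KRT7, KRT8 and KRT18, keratins of simple epithelia, lay between 219 and 645 UMIs per 1000000 UMIs of a library (CPM). EPCAM and CDH1, junction genes of epithelium, lay at or below 1.17 and 0.0490 CPM. KRT19, a further keratin looked at, did not reach a mean of 10 CPM over the 4 libraries. Markers of leukocytes, muscle, and airway basal, secretory and ciliated cells summed by list to under 0.1 CPM in each library. Endothelial markers summed to between 0.295 and 0.504 CPM. Fibroblast markers summed to between 20.6 and 25.8 CPM, of which COL1A1, a collagen gene, made up between 20.5 and 25.6 CPM. DCN and PDGFRA, the other genes of that list, did not reach a mean of 10 CPM. The libraries of 10 mGy and 100 mGy stood apart from the control and 1 Gy. Ribosomal protein genes held 19.97% and 21.8% of their UMIs, against 13.9% in the control and 14.0% at 1 Gy, and mitochondrially encoded genes held 4.55% and 4.40%, against 5.91% and 5.78%.

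Promoters are shown because short sequence motifs, which the rule did not use, were found in many of the members but not in all. A RefSeq promoter (GRCh38.p14, 250 bases before to 50 bases after the start) was at hand for 36 members. Both strands were searched for GCATGCG, the core of the NRF1 motif, for CCGGAAG, an ETS-family motif of the kind that GABPA binds, and for AAGATGG, a YY1 motif. The 100 bases before the start follow for 8 members with a match and for COX5A, which had none, and capitals mark the matches on either strand that lie whole within these bases. A second ETS match of COX5B runs across the start and is left in lower case, and matches further away are not shown.
UQCRH, chr1:46303598-46303697, plus strand: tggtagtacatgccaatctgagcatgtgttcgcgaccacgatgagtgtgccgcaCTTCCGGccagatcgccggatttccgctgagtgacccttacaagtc
UQCRQ, chr5:132866542-132866641, plus strand: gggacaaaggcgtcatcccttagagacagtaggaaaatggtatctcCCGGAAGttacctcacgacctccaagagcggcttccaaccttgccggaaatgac
COX5B, chr2:97645962-97646061, plus strand: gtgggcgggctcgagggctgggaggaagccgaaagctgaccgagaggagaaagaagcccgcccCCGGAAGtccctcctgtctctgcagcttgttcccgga
COX6A1, chr12:120438013-120438112, plus strand: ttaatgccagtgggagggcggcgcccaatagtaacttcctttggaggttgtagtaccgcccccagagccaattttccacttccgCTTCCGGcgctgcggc
COX6B1, chr19:35648223-35648322, plus strand: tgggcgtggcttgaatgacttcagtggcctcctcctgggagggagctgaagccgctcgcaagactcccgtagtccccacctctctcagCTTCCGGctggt
COX7C, chr5:86617841-86617940, plus strand: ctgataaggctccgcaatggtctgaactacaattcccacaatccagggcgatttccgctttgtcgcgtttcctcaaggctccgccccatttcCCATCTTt
ATP5F1C, chr10:7788077-7788176, plus strand: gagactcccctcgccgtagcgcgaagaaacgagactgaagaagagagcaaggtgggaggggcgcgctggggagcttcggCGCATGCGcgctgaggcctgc
ATP5ME, chr4:674277-674376, minus strand: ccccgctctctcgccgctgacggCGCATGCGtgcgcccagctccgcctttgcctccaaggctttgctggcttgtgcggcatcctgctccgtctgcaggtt
COX5A, chr15:74938074-74938173, minus strand: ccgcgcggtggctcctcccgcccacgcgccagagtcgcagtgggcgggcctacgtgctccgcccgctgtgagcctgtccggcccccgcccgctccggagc
In ATP5F1C and ATP5ME the capitals hold the NRF1 core on both strands at once, because its letters overlap with their own reverse complement. In COX7C they hold the YY1 letters on the opposite strand, and in the other genes with capitals the ETS letters on either strand.

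Of the 32 members with a promoter and a mean of at least 10 CPM over the 4 libraries, 21 (65.6%) held at least 1 of the 3 motifs in the 300-base window. The share over all 7096 genes with the same minimum and a promoter was 33.1%. The ETS letters were found in 14 members (43.8%, against 21.5% of those genes), the YY1 letters in 8 of 32 (against 9.03%) and the NRF1 core in 5 (15.6%, against 6.89%). Complex III had 3 members with the ETS letters out of 7, complex IV had 5 of 10 and complex V had 6 of 14. None of the 7 complex III members searched held the NRF1 core, while COX5B and COX6A1 of complex IV, ATP5F1C and ATP5ME of complex V, and CYCS did. A match is a run of letters and not a measured binding site.

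Pooled CPM was the measure of level: the UMIs of a gene summed over the deposited barcodes of a library, scaled to 1000000 UMIs per library. A mean of 10 CPM over the 4 libraries was required for counts across genes, and 8507 genes passed. Of the members, 39 of 47 passed: 9 of 10 in complex III, 11 of 17 in complex IV, 18 of 19 in complex V, and CYCS. The 8 others were UQCRHL, ATP5MGL, COX4I2, COX6A2, COX6B2, COX7A1, COX7B2 and COX8C. Intervals given with ratios are exact 95% intervals for UMI counts and cover counting error only.

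At 10 mGy, 32 of the 39 members were at least 1.2-fold above the control and 0 were at least 1.2-fold below it, where 15.4% of all genes tested were that much higher and 53.0% that much lower. At 100 mGy, 33 of 39 were higher and 0 lower, where 14.0% of all genes were higher and 58.9% lower. The median ratio of the members to the control was 1.58 at 10 mGy and 1.66 at 100 mGy, while the median over all genes was 0.810 and 0.766. All 39 were above the control by some amount at both doses, as were 28.1% and 25.3% of all genes. The library of 1 Gy had 0 members past 1.2-fold in either direction, with 1.28% of all genes higher and 0.846% lower, and the median ratio was 1.01 for the members and 1.01 for all genes. All 3 comparisons use the same control library.

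The comparison of 10 mGy with the control and that of 100 mGy with 1 Gy share no library. In the latter, 33 of 39 members were at least 1.2-fold higher at 100 mGy, with 14.0% of all genes that much higher and 60.6% that much lower. Between both low doses, 0 of 39 members passed 1.2-fold at 100 mGy against 10 mGy, with 1.35% of all genes higher and 12.7% lower. By any amount, 30 of 39 were above 10 mGy at 100 mGy (32.2% of all genes). After median ratio scaling 39 of 39 were (53.1%), and in unscaled UMIs per barcode 16 of 39 (10.6%). In 38 of 39 members both low doses lay above both the control and 1 Gy, as they did in 20.7% of all genes, or 41.6% after median ratio scaling. The exception was ATP5F1A.

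**Figure D1:**
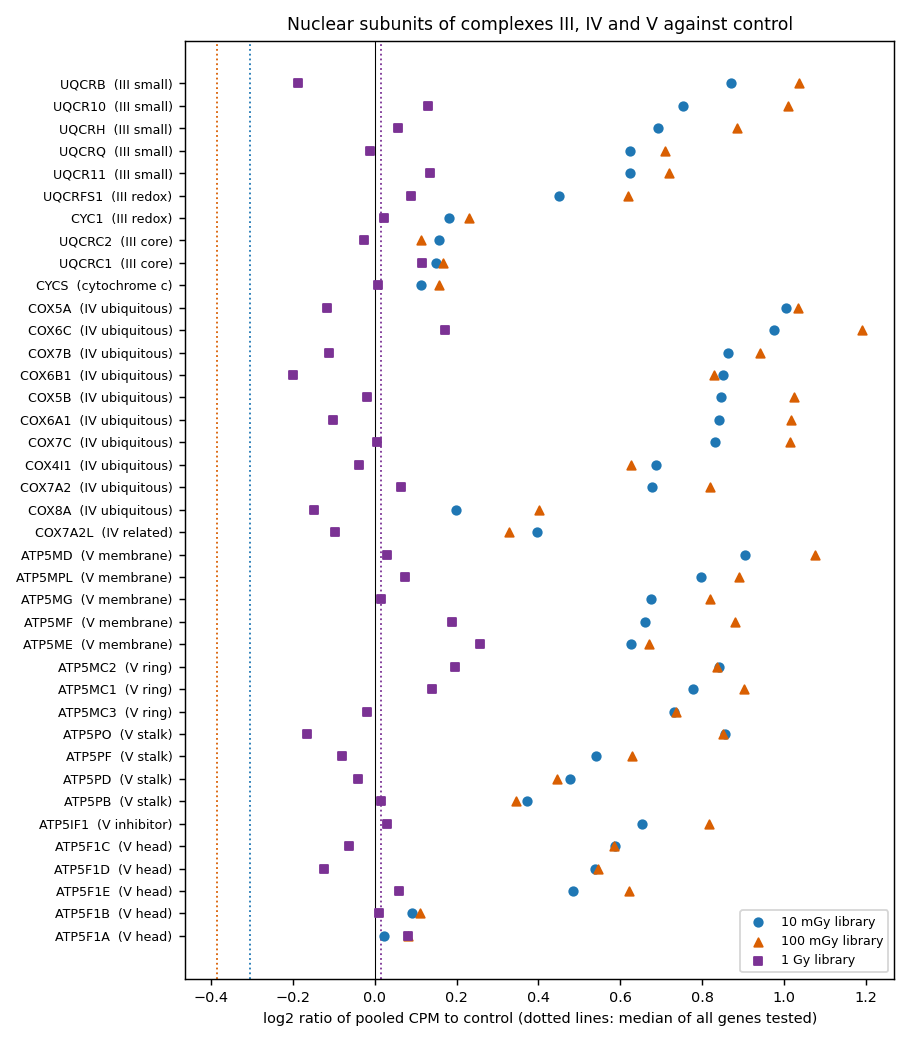
Log2 ratio of pooled CPM to the control for the 39 members with a mean of at least 10 CPM, by gene and by position in the complex (vertical axis), with circles for 10 mGy, triangles for 100 mGy and squares for 1 Gy. Dotted lines mark the median of 8507 genes in each library. Circles and triangles lie right of 0 for all 39 members, nearest to 0 for ATP5F1A and ATP5F1B, and the squares scatter on both sides of 0.

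The size of the difference depended on the scaling. The median over all genes of pooled CPM was shifted by -0.30 (log2) with 10 mGy, by -0.38 with 100 mGy and by 0.02 with 1 Gy. Median ratio scaling, which sets that median close to 0, placed all 39 members at least 1.2-fold above the control at both low doses, where 30.6% and 31.8% of all genes were that much higher. In unscaled UMIs per barcode, 12 members were at least 1.2-fold higher and 7 lower at 10 mGy, where 1.62% of all genes were higher and 84.6% lower. At 100 mGy the unscaled counts were 9 higher and 8 lower, where 1.02% of all genes were higher and 90.1% lower. By any amount, 12 of 39 members lay below the control at 10 mGy in unscaled UMIs (93.7% of all genes) and 16 at 100 mGy (96.1%). In the 1 Gy library 38 members were at least 1.2-fold lower in unscaled UMIs, as were 97.2% of all genes. The ratios below are thus shares of the UMIs of a library and not molecules per cell.

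Complex IV had the highest median ratio of the complexes at both low doses, but the ratios of single members overlapped between complexes. Its median ratio to the control was 1.79 at 10 mGy and 1.92 at 100 mGy, against 1.54 and 1.64 in complex III and 1.56 and 1.63 in complex V. The difference of the medians between complexes IV and III was 0.22 (log2) at 10 mGy and 0.23 at 100 mGy, and between IV and V it was 0.20 and 0.24. Complexes III and V differed by -0.02 and 0.01. At 1 Gy the order was turned, with a median of -0.10 (log2) in complex IV, 0.06 in complex III and 0.02 in complex V, but the median of complex IV was 0.04 with UMIs scaled per barcode, so its sign at 1 Gy depended on the scaling. With 1 library per dose, these differences between complexes have no replicate spread to be set against.

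By count, 10 of 11 members of complex IV were at least 1.2-fold higher at 10 mGy (15.4% of all genes) and 11 of 11 at 100 mGy (14.0%). Complex III had 6 of 9 at each dose and complex V 16 of 18 at each dose. At 2-fold, 1 member, COX5A, passed at 10 mGy (0.376% of all genes did) and 8 passed at 100 mGy (0.482% of all genes). The latter were UQCR10 and UQCRB of complex III, COX5A, COX5B, COX6A1, COX6C and COX7C of complex IV, and ATP5MD of complex V. The other 7 already had ratios of 1.68 to 1.97 at 10 mGy, and the median ratio of the members at 100 mGy to 10 mGy was 1.06.

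The summed level of complex III was 2377, 3684, 4083 and 2432 CPM in the control, 10 mGy, 100 mGy and 1 Gy libraries. That of complex IV was 2873, 4741, 5136 and 2784 CPM, and that of complex V was 5982, 9069, 9681 and 6163 CPM, in the same order. As a share of the members' own UMIs, which does not depend on the library total, complex IV held 24.98% in the control library (exact 95% interval 24.92% to 25.03%), 26.66% in that of 10 mGy (26.62% to 26.69%), 26.75% in that of 100 mGy (26.71% to 26.79%) and 23.90% in that of 1 Gy (23.84% to 23.95%). Complex V held 52.0%, 51.0%, 50.4% and 52.9%, and complex III 20.7%, 20.7%, 21.3% and 20.9%. CYCS held 2.36%, 1.65%, 1.57% and 2.34%. In proportion this share differed more than those of the complexes, but CYCS is a single gene set beside sums of genes. At 10 mGy the single genes ATP5F1A (1.02) and ATP5F1B (1.06) of complex V had lower ratios to the control than CYCS (1.08). All 47 members together held 1.15%, 1.78%, 1.92% and 1.17% of all UMIs.

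**Figure D2:**
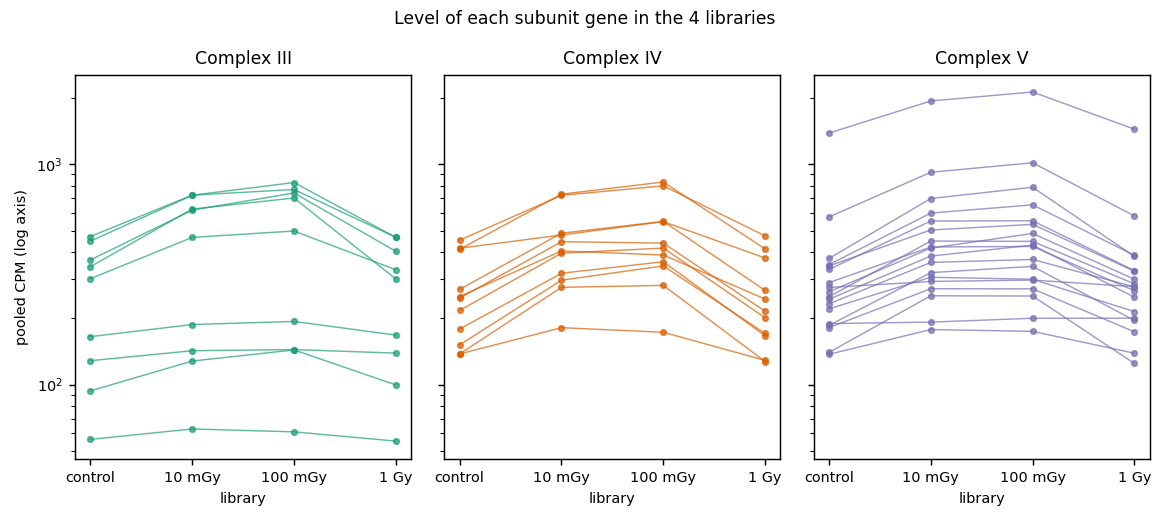
Pooled CPM (log axis) of each member of complexes III, IV and V with a mean of at least 10 CPM. A panel stands for each complex and a line for each gene, over the control, 10 mGy, 100 mGy and 1 Gy libraries. CYCS is not drawn. Most lines are higher at 10 and 100 mGy than at either end, and the flattest lines belong to UQCRC1, UQCRC2 and CYC1 of complex III and to ATP5F1A and ATP5F1B of complex V.

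In complex III the small accessory subunits differed from the control most. UQCRB, a subunit that binds ubiquinone, was at 343, 627, 704 and 301 CPM in the control, 10 mGy, 100 mGy and 1 Gy libraries, and UQCR10 at 368, 619.8, 741 and 403 CPM. UQCRH, the acidic hinge protein beside cytochrome c1, was at 448, 724, 827 and 466 CPM. Against the control these were 1.83-fold (1.81 to 1.84), 1.68-fold (1.67 to 1.70) and 1.62-fold (1.60 to 1.63) higher at 10 mGy, and for each of the 3 genes both low doses lay above the control and 1 Gy. UQCRQ and UQCR11, also small subunits, were both 1.54-fold higher at 10 mGy.

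The core and redox subunits of complex III stayed nearer to the control. UQCRC1 and UQCRC2, the large core proteins on the matrix side, were at 128, 142, 144 and 139 CPM and at 56.3, 62.8, 61.0 and 55.4 CPM in the control, 10 mGy, 100 mGy and 1 Gy. CYC1, the cytochrome c1 subunit that passes electrons on to cytochrome c, was at 165, 187, 193 and 168 CPM. None of the 3 passed 1.2-fold at any dose, with ratios of 1.11, 1.12 and 1.13 at 10 mGy. UQCRFS1, the iron-sulfur subunit, lay between these and the small subunits, with 93.6, 128, 144 and 99.6 CPM and a ratio of 1.37 at 10 mGy and 1.53 at 100 mGy. Summed, the small subunits had a ratio of 1.64 at 10 mGy and 1.83 at 100 mGy, and the core pair 1.11 and 1.11.

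CYCS, the carrier between complexes III and IV, was at 271, 294, 302 and 273 CPM in the control, 10 mGy, 100 mGy and 1 Gy libraries. At 10 mGy this was 1.08-fold the control (1.07 to 1.09) and at 100 mGy 1.11-fold (1.10 to 1.13), under the 1.2-fold threshold and close to that of CYC1.

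In complex IV, COX5A was at 138, 276, 282 and 127 CPM in the control, 10 mGy, 100 mGy and 1 Gy libraries. COX6C was at 151, 298, 346 and 171 CPM, and COX7B at 217, 395, 417 and 201 CPM. COX5A was 2.005-fold (1.98 to 2.03), COX6C 1.97-fold (1.94 to 1.99) and COX7B 1.82-fold (1.80 to 1.84) above the control at 10 mGy, and both low doses were clear of the other 2 libraries in each. COX6C had the largest ratio of all members at 100 mGy, 2.28 (2.25 to 2.31), the 6th highest of the 8507 genes.

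The members of complex IV with the smallest ratios at 10 mGy were COX8A, COX7A2L and COX7A2. COX8A, the short subunit VIII in its ubiquitous form, was at 416, 478, 549 and 376 CPM in the control, 10 mGy, 100 mGy and 1 Gy. It was 1.15-fold (1.14 to 1.16) higher at 10 mGy and 1.32-fold (1.31 to 1.33) higher at 100 mGy, and was the only tested complex IV member under 1.2-fold at 10 mGy. COX7A2L, a relative of COX7A2 known for joining complexes III and IV in supercomplexes, was at 138, 181, 173 and 129 CPM, with a ratio of 1.32 and 1.255 at the low doses. COX7A2 was at 453, 723, 799 and 473 CPM, with ratios of 1.60 and 1.76. The ratios of COX4I1, COX5B, COX6A1, COX6B1 and COX7C, ubiquitous subunits around the catalytic core, lay between 1.61 and 1.80 at 10 mGy and between 1.54 and 2.03 at 100 mGy.

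Several subunits of complex IV have a partner form that is typical of heart, skeletal muscle, lung or testis. COX6A2 and COX7B2 had 0 UMIs in all 4 libraries, which allows up to 0.0105 to 0.0142 CPM (3 counts in the largest and the smallest library). COX4I2, the form known from lung, had 1 UMI in the control and 0 in the other libraries, beside 53437 UMIs of COX4I1 in the control. COX7A1 had 1, 1, 2 and 3 UMIs and COX8C 1, 3, 3 and 2, from the control to 1 Gy. Only COX6B2 of these 6 was counted more often, with 233, 257, 213 and 268 UMIs. Its share of the COX6B1 and COX6B2 pair was 0.441% in the control library (exact 95% interval 0.387% to 0.502%) and 0.584% in that of 1 Gy (0.517% to 0.658%), against 0.201% in that of 10 mGy (0.178% to 0.228%) and 0.198% in that of 100 mGy (0.172% to 0.227%). The cells thus held UMIs almost wholly from the ubiquitous forms, in each library.

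In complex V, ATP5MD, a small membrane subunit, was at 374, 699.8, 787 and 382 CPM in the control, 10 mGy, 100 mGy and 1 Gy libraries. ATP5PO, the oligomycin sensitivity-conferring subunit that ties the stalk to the head, was at 139.9, 253, 252 and 125 CPM. ATP5MC2, a gene for the c ring, was at 250.4, 448, 447 and 287 CPM. They were 1.87-fold (1.86 to 1.89), 1.81-fold (1.78 to 1.83) and 1.79-fold (1.77 to 1.81) above the control at 10 mGy, and both low doses exceeded the other 2 libraries in each.

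The large subunits of the catalytic head were the members nearest to the control. ATP5F1A (alpha) was at 189, 192, 200.01 and 200.1 CPM and ATP5F1B (beta) at 276, 294, 298 and 278 CPM in the control, 10 mGy, 100 mGy and 1 Gy. Their ratios at 10 mGy were 1.02 (1.00 to 1.03) and 1.06 (1.05 to 1.08). ATP5PB, the b subunit of the peripheral stalk, was at 137, 178, 174 and 139 CPM with a ratio of 1.29 (1.28 to 1.31). The other ATP5F1 genes stood further from the control. ATP5F1E (epsilon) was at 1387, 1941, 2132 and 1445 CPM, a ratio of 1.40 at 10 mGy. ATP5F1C (gamma) and ATP5F1D (delta) had ratios of 1.502 and 1.45. Summed, the 5 ATP5F1 genes, grouped here as the head, had a ratio of 1.34 at 10 mGy and 1.43 at 100 mGy. ATP5F1E alone held 1387 of the 2324 CPM of this sum in the control, so these ratios are not those of alpha and beta. The peripheral stalk had summed ratios of 1.47 and 1.495, the small membrane subunits 1.66 and 1.84, and the c ring 1.72 and 1.77. ATP5IF1, which inhibits ATP hydrolysis by the enzyme, was at 244, 383, 429.7 and 249 CPM, with ratios of 1.57 and 1.76.

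The c ring is built from the product of 3 genes that encode the same mature protein with different targeting peptides. ATP5MC1 was at 350.4, 601, 655 and 386 CPM and ATP5MC3 at 333, 553, 554 and 329 CPM. Of the UMIs of the 3 genes, ATP5MC1 held 37.5%, 37.5%, 39.5% and 38.5%, ATP5MC2 26.8%, 28.0%, 27.0% and 28.6%, and ATP5MC3 35.7%, 34.5%, 33.5% and 32.8%, from the control to 1 Gy. The order of the 3 was the same in every library, and each share moved by under 3 percentage points.

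UQCRHL and ATP5MGL are close copies of UQCRH and ATP5MG, so the split of reads within each pair is uncertain. UQCRHL held 0.312%, 0.230%, 0.240% and 0.281% of the UMIs of its pair, and ATP5MGL 0.702%, 0.342%, 0.279% and 0.751%. In GENCODE 29, 26 of the 47 members have at least 1 named pseudogene, most of all CYCS with 40 and COX6C with 17. Reads that match a pseudogene as well may be missing from their counts.

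Per kilobase of exonic length, the highest mean levels over the 4 libraries were 897 CPM per kb for COX8A, 607 for ATP5MD and 547 for UQCR10. The lowest among the 39 were 11.3 for UQCRC2, 17.9 for ATP5F1A and 27.7 for COX7A2L. The tags come from the 3′ end of the molecules, so this scale favours short genes. Exonic length is the union of all annotated exons of a gene and can exceed the length of the transcript counted.

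At 1 Gy the individual ratios of the 39 members ran from 0.872 for COX6B1 to 1.19 for ATP5ME, a membrane subunit of complex V. COX6B1 was at 247, 446, 439 and 215 CPM in the control, 10 mGy, 100 mGy and 1 Gy, and ATP5ME at 232, 359, 369.9 and 278 CPM. In pooled CPM, 8 of 11 members of complex IV lay below the control at 1 Gy by any amount, against 3 of 9 in complex III, 6 of 18 in complex V and 43.8% of all genes. With UMIs scaled per barcode, 4 of 11 members of complex IV lay below the control, and 48.4% of all genes. ATP5ME, ATP5MF, ATP5MC2 and COX6C were then at least 1.2-fold above it, as were 1.54% of all genes.

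Within single barcodes the members' share of UMIs differed in the same way over most of the distribution. Barcodes with fewer UMIs than the library median divided by 3, called low-UMI barcodes, were between 19.6% (control) and 41.4% (10 mGy) of a library, and held between 2.16% and 5.40% of its UMIs. Without them, complex IV held a median of 0.285% of the UMIs of a control barcode, against 0.467% with 10 mGy, 0.508% with 100 mGy and 0.274% with 1 Gy. The 95th percentile of the control was 0.379%, while the 5th percentiles at 10 mGy and 100 mGy were 0.359% and 0.380%. For complex V the medians were 0.596%, 0.893%, 0.953% and 0.608%, and for complex III 0.235%, 0.363%, 0.401% and 0.239%. Without low-UMI barcodes the central 90% of barcodes at 100 mGy thus lay just clear of that of the control for complex IV, and overlapped it at 10 mGy. For complex V it was also clear at 100 mGy (5th percentile 0.760%, against a 95th percentile of 0.737% in the control) and for complex III it was not (0.296% against 0.309%). Over all barcodes the ranges overlapped in all 3 complexes, with 0.338% at 100 mGy against 0.437% in the control for complex IV.

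**Figure D3:**
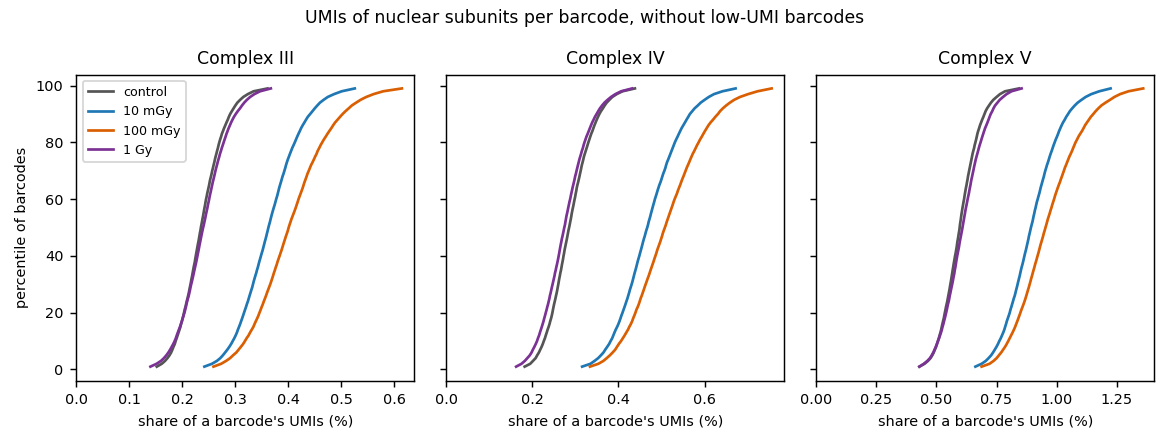
Share of a barcode's UMIs held by the nuclear members of complexes III, IV and V (horizontal axis, in %), against the percentile of barcodes (vertical axis), with a line for each library and without low-UMI barcodes. The lines of 10 mGy and 100 mGy run to the right of the control at every percentile shown, and the line of 1 Gy runs near the control in all 3 panels.

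Depth per barcode differed between the libraries, so the ratios were also taken within ranges of UMIs per barcode. Over 5 ranges, from under 5000 to 40000 and over, the ratio of the summed members to the control lay between 1.51 and 1.72 at 10 mGy and between 1.57 and 1.85 at 100 mGy. Complex IV had the highest ratio of the 3 complexes in all 5 ranges at both low doses, from 1.60 to 1.89 at 10 mGy and from 1.67 to 1.98 at 100 mGy. At 1 Gy the summed ratio was 1.23 under 5000 UMIs, and between 0.940 and 1.04 in the other ranges. Low-UMI barcodes had a higher summed level of the members than the other barcodes of the same library, by between 1.07-fold (control) and 1.31-fold (1 Gy).

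**Figure D4:**
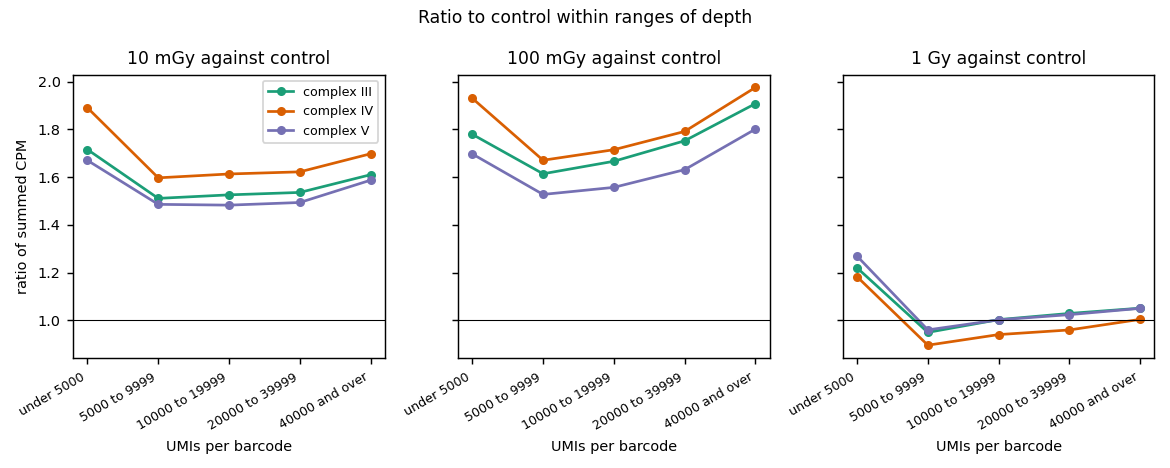
Ratio of summed CPM to the control for each complex (vertical axis) within 5 ranges of UMIs per barcode (horizontal axis), with a panel for each dose. The ratios at 10 mGy and 100 mGy lie above 1.4 in every range, with complex IV on top, and those at 1 Gy lie near 1 except under 5000 UMIs.

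The members are short genes, and short genes in general were higher at the low doses. Their median exonic length was 2326 bases, against 5336 in the other 8461 genes with a length. Over those other genes the Spearman correlation between length and log2 ratio was -0.55 for 10 mGy, -0.56 for 100 mGy and 0.03 for 1 Gy, given as a description across genes that share 1 pair of libraries. Over the 39 members it was -0.27, -0.36 and 0.03. In the shortest of 5 equal bins of genes, up to 3009 bases, the median log2 ratio was 0.19 at 10 mGy and 43.8% were at least 1.2-fold higher, while the 21 members of that length had a median of 0.66 and 18 were higher. In the next bin, 3010 to 4523 bases, the median of all genes was -0.16 and that of the 11 members 0.67. Because length is the union of all annotated exons, genes in the same bin may differ in the length of their transcripts. The part of gene length in the members' difference was not tested beyond these bins.

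**Figure D5:**
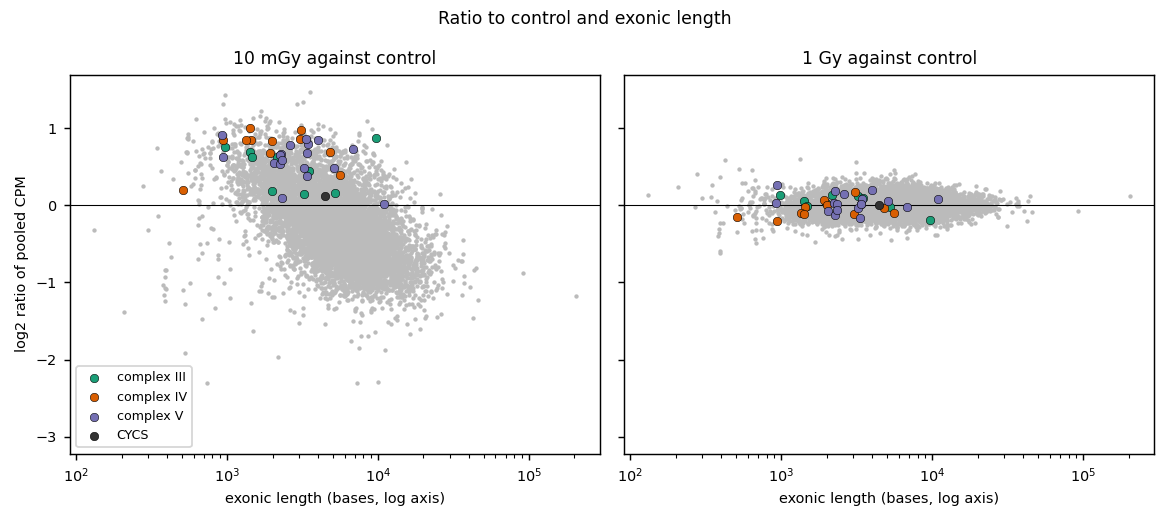
Log2 ratio of pooled CPM to the control (vertical axis) against exonic length in bases (log axis) at 10 mGy and 1 Gy, with small grey points for all genes with a mean of at least 10 CPM and coloured points for the members by complex. At 10 mGy the grey points fall with length and the members lie at or above 0 along their whole range of length, and at 1 Gy neither shows a slope.

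The mitochondrially encoded subunits of the same complexes were lower in pooled CPM at the low doses, as most genes were. MT-CYB, the cytochrome b of complex III, was at 4539, 3938, 4318 and 4344 CPM in the control, 10 mGy, 100 mGy and 1 Gy libraries. In complex IV, MT-CO1 was at 7297, 5423, 4688 and 7173 CPM, MT-CO2 at 15280.4, 13909.6, 14192 and 14565 CPM, and MT-CO3 at 10300.1, 8366, 8157 and 10975 CPM. In complex V, MT-ATP6 was at 8243, 5345, 5012 and 6572 CPM and MT-ATP8, whose reading frame overlaps it, at 91.5, 34.96, 16.5 and 108 CPM. In pooled CPM each of the 6 genes was below the control at both low doses, as were 71.9% (10 mGy) and 74.7% (100 mGy) of all genes. Their ratios at 10 mGy ran from 0.382 for MT-ATP8 to 0.910 for MT-CO2, around the median of 0.810 over all genes. After median ratio scaling MT-CYB and MT-CO2 lay above the control at both low doses, by 0.10 and 0.17 (log2) at 10 mGy and by 0.31 and 0.28 at 100 mGy, and MT-CO3 lay within 0.05 of it, while MT-CO1, MT-ATP6 and MT-ATP8 stayed below. With the total taken without ribosomal protein and mitochondrially encoded genes, MT-CYB (0.05) and MT-CO2 (0.01) were above it at 100 mGy. The UMIs of nuclear members per UMI of mitochondrially encoded partners were 0.524, 0.935, 0.946 and 0.560 in complex III, 0.0874, 0.171, 0.190 and 0.0851 in complex IV, and 0.718, 1.69, 1.92 and 0.923 in complex V. This ratio needs no library total, and in all 3 complexes both low doses lay above the control and 1 Gy.

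Other nuclear genes of the same machinery differed by list. NDUFA4, a further subunit of complex IV, was at 221, 409, 471 and 213 CPM, 1.85-fold above the control at 10 mGy and 2.13-fold at 100 mGy, like the small COX subunits. The counts that follow stand beside 15.4% of all genes at least 1.2-fold higher and 53.0% lower at 10 mGy. Of 26 tested assembly factors of complex IV, 13 were higher and 3 lower, from PET100 with a ratio of 2.10 to SCO1, a copper chaperone, with 0.660. Of 6 assembly factors of complex III, UQCC2 was higher (1.74) and LYRM7 and TTC19 were lower (0.745 and 0.733). Of 5 assembly factors of complex V, 3 were higher and 0 lower, with FMC1 at 1.84, TMEM70 at 1.2498 and ATPAF2 at 1.33, and ATPAF1 had the lowest ratio, 0.864.

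Complex II, which has no subunit encoded in mitochondrial DNA, was listed with its assembly factors for comparison. At 10 mGy, 6 of 7 were at least 1.2-fold higher (15.4% of all genes), SDHD most with 1.46, and SDHA, the large flavoprotein, was lower with 0.757. At 100 mGy 5 were higher (14.0% of all genes) and 1 lower (58.9%). The summed ratio of this list was only 1.11 at 10 mGy and 1.04 at 100 mGy. Summed ratios were 1.55 and 1.72 in complex III, 1.65 and 1.79 in complex IV, and 1.52 and 1.62 in complex V. Of 6 tested transcription regulators of these genes, 0 were at least 1.2-fold higher at 10 mGy and 3, GABPA, GABPB1 and PPRC1, were lower, beside 15.4% and 53.0% of all genes. GABPA, which binds the ETS motif shown above, was at 20.4, 11.8, 10.7 and 19.7 CPM, the lowest ratio of its list at 0.580, and TFAM, a factor of mitochondrial DNA, had the highest at 1.04. At 100 mGy, 5 of the 6 were lower (58.9% of all genes), TFAM being the exception with 1.05. Members with a motif in the promoter window had a median log2 ratio of 0.62 at 10 mGy (n = 21 genes) and those without 0.75 (n = 11).

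The dispersion of expression over barcodes, the standard deviation over the mean of UMIs scaled to 10000 per barcode, had a median over the members of 90.4%, 88.9%, 100.4% and 106% in the control, 10 mGy, 100 mGy and 1 Gy libraries. From 10 mGy to 100 mGy it was lower in 0 of the 39 members and in 1.41% of all genes. By complex the medians at 10 mGy and 100 mGy were 80.9% and 88.5% in complex III, 88.9% and 100.4% in complex IV, and 87.9% and 97.1% in complex V. This direction differed in unscaled UMIs and after thinning, and the level of the dispersion depended also on the barcodes kept. Without low-UMI barcodes the medians over the members were 48.0%, 41.6%, 47.0% and 53.0% in the same order of libraries, so that 100 mGy lay below the control and not above it. Thinned to 1500 UMIs per barcode, the medians were 159%, 125%, 128% and 156%. In unscaled UMIs all 39 members had the lower dispersion at 100 mGy (43.9% of all genes), and after thinning 24 of 39 did (39.0% of all genes). Thinning also changed which barcodes were used, since it left out 932 barcodes of the control as too shallow, and 2048, 4576 and 2859 of the 10 mGy, 100 mGy and 1 Gy libraries.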

How the data were processed

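Single-cell 3′ libraries of BEAS-2B cells, 1 per dose, were used as deposited. The authors deposited raw UMI counts per gene and barcode, and the file header names Cell Ranger 7.0.1. The submitters' processing notes name Cell Ranger, STAR and GRCh37, without saying which step used which. Whether intronic reads were counted is not given in the sources used here. Depth is given with the results.

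UMIs were summed over all deposited barcodes and divided by the library total (CPM). Sums were preferred to the mean of scaled barcodes because raw sums have counting intervals. Genes needed a mean of 10 CPM. A gene was counted past 1.2-fold, a threshold the study also used. Ratios have exact conditional binomial intervals, shares Clopper-Pearson intervals. The members and lists were chosen with earlier results of these data known. Values in all libraries are given for the 3 largest and the 3 smallest ratios at 10 mGy in each complex, for CYCS, for isoform pairs, for mitochondrially encoded subunits and NDUFA4, and for the extremes of each list by their ratio. Beyond that rule, UQCRFS1, ATP5F1E, ATP5IF1 and the extremes at 1 Gy were named after their values were seen.

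Exonic length (the union of all annotated exons of a gene) and the counts of named pseudogenes came from GENCODE 29. Coordinates and promoters came from RefSeq (GRCh38.p14), matched by symbol. These are not coordinates of the deposited files. Alternatives covered scaling, low and very high UMI barcodes, a filter of 200 genes and 20% mitochondrially encoded UMIs, thinning to 1500 UMIs, minimums of 1 and 100 CPM or of 1 UMI in each library, and 1.5-fold. Ratios were tested on simulated data for 10 mGy against control with 8507 genes. For 40 genes at each true fold, the median recovered ratio was 2.00 for 2, 1.50 for 1.5, 1.29 for 1.3, 0.798 for 0.8 and 0.498 for 0.5. The shift of the total from the changed genes, known in the simulation, was added back before the ratios were compared. It is not known for the deposited libraries, so the simulation covers counting error and not the scaling. A shift of most genes was not simulated. Doublets were kept. Figures used matplotlib 3.10.9, tables pandas 2.3.3, intervals scipy 1.17.1 with numpy 2.4.6, in Python 3.11.15.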

Additional observations from a re-analysis of the deposited data

How the results depend on the processing

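No paired analysis was possible because each dose has 1 library. For the same reason no replicate could be left out, and the spread between replicates of a dose is not known. The counts of members past 1.2-fold, in total and by complex, and the count with a lower dispersion were recomputed under the alternatives. Of these values 253 stayed within 1.5 times the main count and 40 did not. The scaling to the library total mattered most.

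In unscaled UMIs per barcode the members higher and lower at 10 mGy were 12 and 7, beside 1.62% and 84.6% of all genes. By complex they were 1 and 3 in complex III, 7 and 1 in complex IV (the latter COX8A), and 4 and 2 in complex V. At 100 mGy the members higher and lower were 9 and 8, beside 1.02% and 90.1% of all genes. Of these, 2 and 3 were in complex III, 6 and 1 in complex IV, and 1 and 3 in complex V. At 1 Gy 38 were lower, with 9, 11 and 17 in complexes III, IV and V, as were 97.2% of all genes. With UMIs scaled per barcode 4 members were higher at 1 Gy, 1 in complex IV and 3 in complex V, beside 1.54% of all genes. After thinning 1 member was higher at 1 Gy, ATP5ME of complex V, beside 4.02% of all genes. A minimum of 1 CPM brought in UQCRHL, COX6B2 and ATP5MGL. At 10 mGy and 100 mGy the ratios were 0.821 and 0.796 for COX6B2 and 0.775 and 0.698 for ATP5MGL, both at least 1.2-fold lower. UQCRHL had 1.19 and 1.42. With no minimum other than 1 UMI in each library, which leaves out COX4I2, COX6A2 and COX7B2, COX7A1 and COX8C also entered, on 3 UMIs or fewer. COX7A1 had ratios of 0.745, 1.74 and 3.01 at 10 mGy, 100 mGy and 1 Gy, and COX8C 2.23, 2.61 and 2.01. The intervals of the ratios of COX7A1 and COX8C all held 1, as with 0.00949 to 58.4 for COX7A1 at 10 mGy. Those of UQCRHL, COX6B2 and ATP5MGL at 10 mGy and 100 mGy did not, as with 0.706 to 0.852 for ATP5MGL at 10 mGy. The share of all genes past 1.2-fold at these lower minimums is not given here. A lower dispersion at 100 mGy was found in 39 members unscaled (43.9% of all genes) and 24 thinned (39.0% of all genes). The cause was not tested, other than that a lower minimum adds genes.

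Among the medians and the members past 1.2-fold in pooled CPM, signs turned as follows. The median log2 ratio at 1 Gy became 0.039 for complex IV with UMIs scaled per barcode. Under median ratio scaling it became -0.0193 for all members and -0.0079 for complex V. Unscaled, it became -0.4766 for all members, -0.4321 for complex III and -0.4651 for complex V. Unscaled log2 ratios at 10 and 100 mGy were -0.1311 and -0.3171 for COX7A2L and -0.1551 and -0.2987 for ATP5PB, and at 100 mGy -0.2432 for COX8A and -0.0181 for COX4I1. They were -0.08 and -0.03 for UQCRFS1, -0.04 and -0.02 for ATP5F1E, -0.05 and -0.20 for ATP5PD, and at 100 mGy -0.06 for ATP5F1C, -0.10 for ATP5F1D and -0.02 for ATP5PF. By any amount, 12 members lay below the control at 10 mGy when unscaled and 16 at 100 mGy, among them at both doses UQCRC1, UQCRC2, CYC1, CYCS, COX8A, ATP5F1A and ATP5F1B, which at 10 mGy lay between -0.33 and -0.51. No other scaling or barcode setting turned a member at a low dose. The median of complex IV exceeded those of complexes III and V at both low doses by 0.20 to 0.25 (log2) with UMIs scaled per barcode, after thinning and with each choice of barcodes. Median ratio scaling, the reduced total and unscaled UMIs move all genes of a library alike and cannot alter this difference.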
